A study of Rattus norvegicus with 8 samples.

Results

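The 10 genes described here encode enzymes of mitochondrial fatty acid β-oxidation. Of these, 8 belong to the core spiral that shortens acyl-CoA chains (Acadvl, Acadl, Acadm, Acads, Hadha, Hadhb, Hadh and Acaa2), and 2 are auxiliary enzymes that prepare unsaturated chains for it (Eci1 and Decr1). They were chosen by name, and a probe set was taken as theirs when the array annotation gave it that single symbol. A gene counted as measured when at least 1 of its probe sets spanned 0.05 or more on the log2 scale over the 8 arrays. By this rule 8 of the 10 genes, and 9 of their 15 probe sets, were measured. Among all genes on the array, 2808 of 14217 genes with a single symbol, and 4155 of 31042 probe sets (13.4%), passed the same limit.

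Liver RNA was compared between 4 rats on a high phosphorus (HP) diet with 1.2% phosphorus and 4 rats on a control diet with 0.3%. All were male Wistar rats, bought at 4 weeks of age and kept on the control diet for 7 days before the 24 days on either diet, and their livers were taken at 8 weeks. Each diet had 5 rats, of which 4 have an array here, and each array holds the RNA of 1 rat. The livers were whole tissue, so that fewer cells of a type and less RNA per cell cannot be told apart. All values on the arrays ran from 5.35 to 14.53. The measured hepatocyte genes Apoa1, Apob, Fgb and Cyp2e1 were bright in every rat. Their values ran from 12.8 (Cyp2e1 in control rat 2) to 13.9 (Fgb in control rats 1 and 3). The probe sets of Alb, Ttr, Serpina1 and Ahsg averaged from 13.78 to 14.53. They did not count as measured, so they cannot show whether the rats differed.

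Each turn of the spiral has 4 steps. An acyl-CoA dehydrogenase introduces a double bond, with separate enzymes for very long (Acadvl), long (Acadl), medium (Acadm) and short chains (Acads). Hydration, a further dehydrogenation and thiolysis follow, carried out for long chains by the trifunctional protein, whose α subunit is Hadha and whose β subunit is Hadhb, and for shorter chains by separate matrix enzymes that include Hadh and Acaa2. Double bonds of natural fatty acids are in positions or forms that the spiral cannot take. Eci1, the enoyl-CoA isomerase, moves them, and Decr1, the dienoyl-CoA reductase, removes one of a conjugated pair with NADPH. In liver many of these genes are known targets of the nuclear receptor PPARα, which binds DNA with RXR as direct repeats of a short motif with 1 base between its copies.

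Promoter sequences in the RefSeq table for build GRCr8 were found for 7 of the 10 genes (Acadvl, Acadm, Acads, Hadha, Hadhb, Hadh and Eci1), each covering 250 bases before and 50 after a transcript start. Acadl, Acaa2 and Decr1 had no entry. AGGTCA, a single copy of such a repeat and a motif of nuclear receptors in general, was searched on both strands. This receptor motif was present in the promoters of 3 of the 7 genes (Acadvl, Hadhb and Eci1) and in 16.2% of all 33469 promoters of that length. The full repeat AGGTCANAGGTCA was present in 0 of the 7 and in 0.0538% of all promoters, and AGGNCANAGGNCA, which contains it, in 0 of the 7 and in 0.415%. A match is only a run of letters, and its absence from this window says nothing of the receptor elsewhere. The 250 bases upstream of Eci1 (chr10:13961000-13961249, + strand), the gene with the largest difference between the diets, are shown with the receptor motif in capitals, where it stands on the opposite strand and starts at -94 from the transcript start.
Eci1 upstream: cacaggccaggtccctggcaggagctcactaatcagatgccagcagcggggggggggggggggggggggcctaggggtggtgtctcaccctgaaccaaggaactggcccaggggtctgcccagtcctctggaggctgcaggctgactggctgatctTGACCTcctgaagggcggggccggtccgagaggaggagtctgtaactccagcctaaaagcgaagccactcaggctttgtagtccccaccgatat

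Acadvl held the same receptor motif 2 times, starting at -169 and -17. In the stretch at -17 the motif is followed, after a single base, by tggtca. This differs from the motif in its first letter, which the search did not leave free, so it was not counted as a repeat. Both stretches are shown (chr10:55236857-55236886 and chr10:55236705-55236734, - strand, motif in capitals).
Acadvl at -169: atggatcaccctAGGTCAagtagaatacag
Acadvl at -17: agacgggagaagAGGTCAgtggtcaaggct

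Hadha and Hadhb lie head to head on chromosome 6, with 243 bases between the annotated ends of both genes. Their promoter windows share 200 bases, so that both subunits are described beside 1 common upstream stretch (chr6:31907558-31907800, + strand, reading towards Hadha). It held no receptor motif. The match counted for Hadhb lay inside that gene, starting at 43 after the transcript start of the table.
Between Hadhb and Hadha: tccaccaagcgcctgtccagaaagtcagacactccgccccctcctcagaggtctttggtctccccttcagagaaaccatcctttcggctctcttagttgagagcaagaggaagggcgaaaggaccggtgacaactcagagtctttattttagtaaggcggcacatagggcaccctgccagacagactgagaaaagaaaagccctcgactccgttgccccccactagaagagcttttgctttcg

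All 8 measured enzymes had a higher mean in the rats fed the HP diet, with differences (HP minus control) from 0.01 in Acadvl to 0.44 in Eci1 and a median of 0.11 on the log2 scale. Over all 2808 measured genes 45.3% had a positive difference and the median was -0.01. Rank products, the method named for the study, was run with 1000 permutations and a false discovery rate (FDR) under 0.05. By it Eci1 and Decr1 were called higher, no core enzyme was, and 0 of the 8 were called lower. Hadhb, with an FDR of 0.0505, was just outside the limit, whereas the paper lists it among its up-regulated genes. Rank products here called 353 probe sets higher, 1.14% of the 31042 on the array and 8.5% of the 4155 that spanned at least 0.05. It called 503 lower, 1.62% and 12.1%. By limma, a linear model whose spread is estimated partly from all probe sets together, 0 of the 8 enzymes passed at a Benjamini-Hochberg adjusted p under 0.05, and 0 of the 4155 probe sets did (0% called). At an unadjusted limma p under 0.05, 4 of the 8 were higher (Eci1, Decr1, Hadhb and Acaa2) and 0 were lower, against 5.37% of all probe sets tested higher and 7.29% lower. That count of 4 became 1 (Eci1) without control rat 3 or with the replicate number as a block, 2 without control rat 2 or without HP rat 2, 3 or 4, and 6 without HP rat 1. Those shares correspond to 223 higher and 303 lower probe sets, a split that became 297 and 223 after each array was centred on the median of its measured probe sets. All calls of rank products lay among the probe sets that spanned at least 0.05, and in values simulated with no difference between the diets the method still made calls over the whole array, so its FDR is given here as a ranking and not as an error rate. Its counts fell to 25 higher and 17 lower probe sets when only those that spanned at least 0.05 were ranked, and then neither Eci1 (FDR 0.199) nor Decr1 (FDR 0.578) was called.

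**Figure D1:**
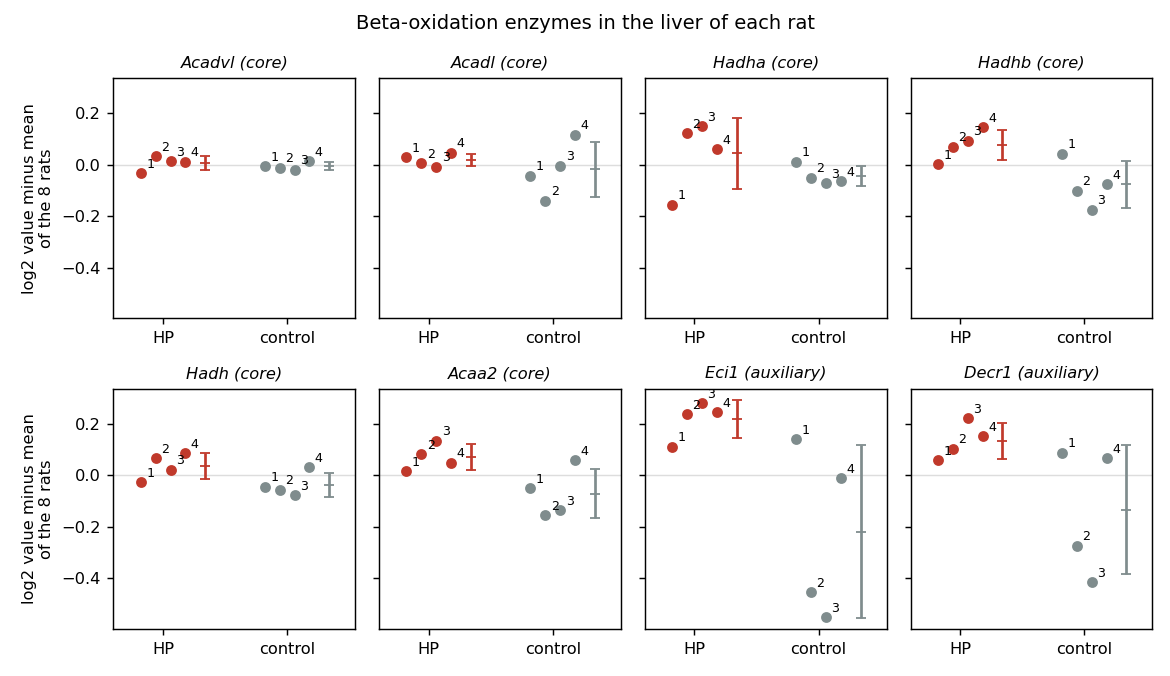
Log2 value of each measured enzyme in each rat, minus the mean of that enzyme over the 8 rats, for the HP diet (red) and the control diet (grey); numbers name the rats, and bars give the mean and SD of 4 rats. For Eci1 and Decr1, control rats 2 and 3 lie far below the other 6 rats, while control rat 1 lies among the HP rats.

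Eci1 (chr10:13961250-13974595) had the largest difference of the 10 genes. Its log2 values were 11.64, 11.77, 11.81 and 11.78 in the rats fed the HP diet and 11.67, 11.08, 10.98 and 11.52 in the rats fed the control diet. HP rats 2, 3 and 4 lay above every control rat, but HP rat 1 lay just below control rat 1, so that the diets overlapped. The means were 11.75 ± 0.07 with the HP diet and 11.32 ± 0.34 with the control diet (SD, n = 4 each), a 1.35-fold difference (log2 difference 0.44, standard error 0.14, 95% confidence interval 0.11 to 0.77). The FDR of Eci1 was 0.00347 by rank products, while limma gave an adjusted p = 0.332. Its difference stood in position 47 among those of the 4155 probe sets, from the largest positive one down. The array's suffix for its probe set (_s_at) marks probes that match more than one transcript, and the other Eci1 probe set was almost constant, with a span of 0.0014.

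Decr1 (chr5:34208195-34236074) followed Eci1 from rat to rat. It had log2 values of 11.61, 11.66, 11.78 and 11.71 in the HP rats, against 11.64, 11.28, 11.14 and 11.62 in the control rats. Again control rats 2 and 3 were low, whereas control rats 1 and 4 lay within the range of the HP rats. The means were 11.69 ± 0.07 with the HP diet and 11.42 ± 0.25 with the control diet (SD, n = 4 each), a 1.20-fold difference (log2 difference 0.27, standard error 0.11, 95% confidence interval 0.02 to 0.52). The FDR was 0.0235 by rank products and the adjusted p = 0.382 by limma. Its call by rank products was lost without HP rats 2, 3 or 4 (FDR 0.109, 0.126 and 0.113) and without control rats 2 or 3 (FDR 0.0536 and 0.083), and its difference was 0.17 without control rat 3.

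The spread of both auxiliary genes was wider among the control rats. The SD of the control group was 4.55 times that of the HP group for Eci1 and 3.58 times for Decr1. This was not particular to them, since the core enzyme Acadl had a ratio of 4.4. The ratio was 1.94 for Acaa2 and 1.53 for Hadhb. For Hadh (0.944), Acadvl (0.512) and Hadha (0.277) the HP group had the larger SD. A ratio of 3 or more was found in 10.8% of the 4155 probe sets, and the control SD was the larger one in 67.9%. Control rats 2 and 3 both lay below control rats 1 and 4 in 22.9% of the probe sets.

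The dehydrogenases that open the spiral showed the smallest differences. Acadl (chr9:75783689-75822077) had log2 values of 12.12, 12.10, 12.09 and 12.14 in the HP rats and 12.05, 11.95, 12.09 and 12.21 in the control rats. The HP rats formed a narrow band inside the range of the control rats (difference 0.04, 95% confidence interval -0.08 to 0.16, limma adjusted p = 0.784). Without control rat 2 the difference of Acadl was -0.0046. Acadvl (chr10:55231558-55236786) had values of 10.48, 10.55, 10.53 and 10.53 in the HP rats and 10.51, 10.51, 10.50 and 10.53 in the control rats. Its span of 0.066 was the closest to the limit among the measured members, and its difference of 0.01 had a 95% confidence interval from -0.08 to 0.10 (limma adjusted p = 0.926).

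No difference could be measured for Acadm, the medium-chain enzyme, and Acads, the short-chain enzyme. Their probe sets spanned 0.00025 and 0.00033 over the 8 rats, around means of 11.80 and 9.46, and were the members outside the limit of 0.05. The summary method leaves a probe set almost constant when its probes share no signal, so these values do not show that the transcripts were equal. The other constant probe sets, which were 2 of Hadha and 1 each of Hadh and Eci1, spanned no more than 0.0014.

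Both subunits of the trifunctional protein had higher means with the HP diet. Hadhb (chr6:31873404-31907557), the subunit with thiolase activity, had log2 values of 11.29, 11.35, 11.38 and 11.43 in the HP rats and 11.33, 11.18, 11.11 and 11.21 in the control rats. Control rat 1 lay above HP rat 1, and the other 3 HP rats lay above every control rat. The means were 11.36 ± 0.06 with the HP diet and 11.21 ± 0.09 with the control diet (SD, n = 4 each), a 1.11-fold difference (log2 difference 0.15, 95% confidence interval 0.03 to 0.28, limma adjusted p = 0.339). Its FDR by rank products was 0.0505, at the threshold: it ran from 0.05 to 0.0508 over 4 other draws of the permutations, and with 1 rat left out it ran from 0.0192 (without control rat 1) to 0.194 (without HP rat 4).

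Hadha (chr6:31907801-31947434), the subunit with hydratase and dehydrogenase activity, had log2 values of 10.56, 10.84, 10.86 and 10.77 in the HP rats and 10.73, 10.66, 10.64 and 10.65 in the control rats. HP rat 1 was the lowest of all 8 rats, and the other 3 HP rats lay above every control rat. The difference was 0.09 (95% confidence interval -0.07 to 0.24, limma adjusted p = 0.57), 0.15 without HP rat 1 and 0.05 without HP rat 3. At least 3 HP rats lay above every control rat in 8.16% of the 4155 probe sets, and among the 8 measured enzymes this held for Hadha, Hadhb, Eci1 and Decr1.

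The matrix enzymes for shorter chains complete the spiral. Hadh (chr2:222462049-222504446), the hydroxyacyl-CoA dehydrogenase, had log2 values of 12.31, 12.40, 12.35 and 12.42 in the HP rats and 12.29, 12.28, 12.25 and 12.36 in the control rats. Control rats 1, 2 and 3 lay below every HP rat and control rat 4 did not (difference 0.07, 95% confidence interval -0.02 to 0.16, limma adjusted p = 0.454). Acaa2 (chr18:70620310-70648417), the matrix thiolase, had values of 12.47, 12.53, 12.58 and 12.50 in the HP rats and 12.40, 12.30, 12.31 and 12.51 in the control rats. Its difference was 0.14 (standard error 0.05, 95% confidence interval 0.02 to 0.26, limma adjusted p = 0.348), and only control rat 4 reached the HP rats. The other measured Acaa2 probe set also gave 0.14, with a wider interval from -0.08 to 0.36. Rank products gave Acaa2 an FDR of 0.0708, and with 1 rat left out from 0.026 (without control rat 4) to 0.26 (without HP rat 3).

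**Figure D2:**
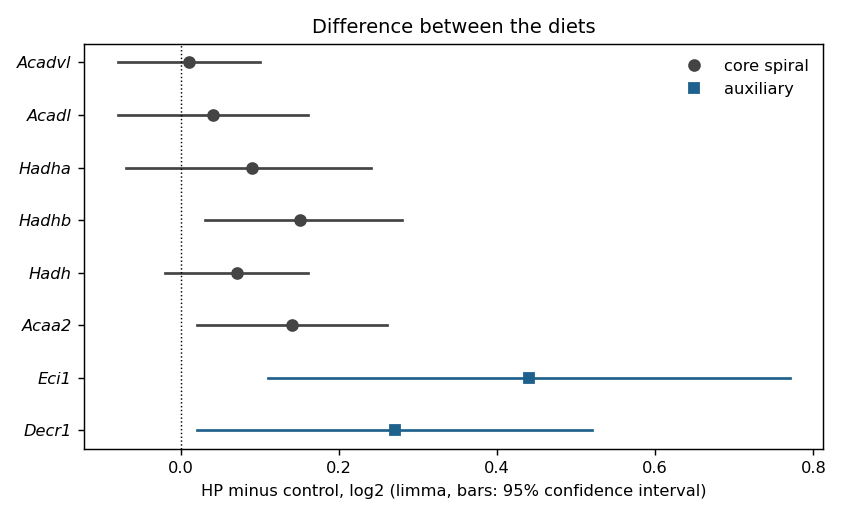
Difference between the diets (HP minus control, log2) for each measured enzyme, with the 95% confidence interval of limma; circles are core enzymes and squares are auxiliary enzymes. The intervals of Hadhb, Acaa2, Eci1 and Decr1 lie above 0, before adjustment over the 4155 probe sets; without control rat 3 the unadjusted limma p was 0.0595 for Hadhb, 0.0695 for Acaa2, 0.039 for Eci1 and 0.1 for Decr1.

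None of the 8 measured enzymes separated the diets without overlap. The HP rats were all above the control rats in 3.1% of the 4155 probe sets and all below them in 4.07%. With shares this small, the lack of such a gene among 8 does not set the enzymes apart from the array. Every HP rat lay above the median of the control rats for 6 of the 8 (Acadl, Hadhb, Hadh, Acaa2, Eci1 and Decr1), against 19.1% of the probe sets. The same rats stood at the ends for most enzymes. Control rat 3 was the lowest for 4 of the 8 enzymes and among the lowest pair for 7, and control rat 2 was among the lowest pair for 6. HP rat 3 was the highest for 4. HP rat 1 was the highest for 0 and the lowest for 2, Hadha and Acadvl.

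The auxiliary enzymes were then set against the core spiral. Each gene was centred on its mean over the 8 rats, and the centred values of both kinds were averaged within each rat. The auxiliary mean was 0.08, 0.17, 0.25 and 0.20 in the HP rats and 0.11, -0.36, -0.48 and 0.03 in the control rats. The mean of the 6 measured core enzymes was -0.03, 0.06, 0.07 and 0.07 in the HP rats and -0.01, -0.09, -0.08 and 0.01 in the control rats. The difference between the diets was therefore 0.35 for the auxiliary enzymes and 0.08 for the core. Auxiliary minus core was 0.11, 0.11, 0.18 and 0.13 in the HP rats and 0.13, -0.28, -0.40 and 0.01 in the control rats. It was even among the HP rats, with control rat 1 in their midst, and strongly negative in control rats 2 and 3. The mean difference of 0.27 in this value was 0.18 when control rat 3 was left out and 0.36 when control rat 1 was left out. No test was made of it, since it is a score over members chosen with earlier results known.

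**Figure D3:**
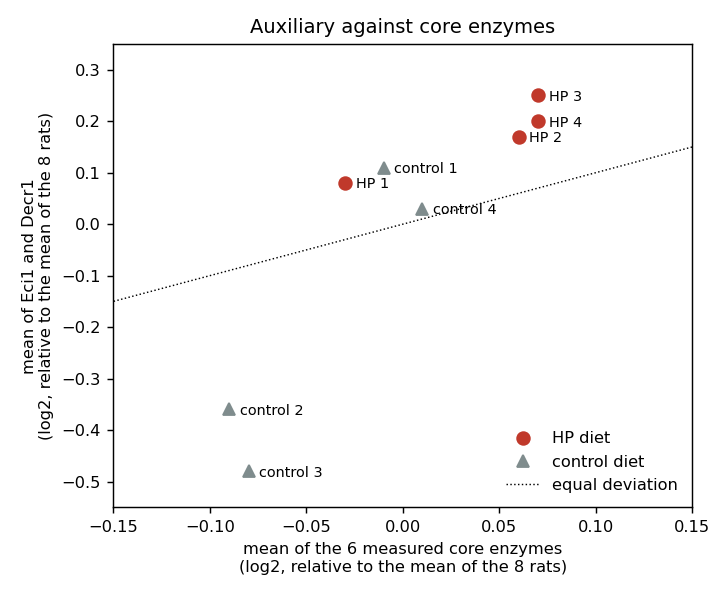
Mean of Eci1 and Decr1 (vertical axis) against the mean of the 6 measured core enzymes (horizontal axis) in each rat, both in log2 relative to the mean over the 8 rats; circles are HP rats, triangles are control rats and the dotted line marks equal deviation on axes of unequal scale. Control rats 2 and 3 lie at -0.36 and -0.48 on the vertical axis but at -0.09 and -0.08 on the horizontal one.

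The genes with the profile closest to the auxiliary enzymes were found among the other 2807 measured genes by the root mean square difference of centred log2 values over the 8 rats. For Eci1, whose SD over the rats was 0.32, they were Ech1 (0.0818), a dienoyl-CoA isomerase that also handles unsaturated chains, Colq (0.0898), the collagen tail of acetylcholinesterase, and Decr1 itself (0.108). Ech1 had log2 values of 10.58, 10.76, 10.82 and 10.90 in the HP rats and 10.54, 9.91, 9.98 and 10.50 in the control rats. Control rats 2 and 3 were again the low pair, and here the diets did not overlap (log2 difference 0.53, standard error 0.15, limma adjusted p = 0.278). The core enzyme closest to Eci1 was Hadhb, in position 93. This measure counts the size of the deviations as well as their pattern. The core enzymes had smaller SDs than Eci1 (0.11 for Hadhb), so their positions do not show that their patterns differed. For Decr1, with an SD of 0.22, the closest were Zfp330 (0.0811), a zinc finger protein, Adh1c (0.0817), as the annotation names an alcohol dehydrogenase, and Tmem98 (0.0861), a membrane protein. Their differences between the diets were 0.27, 0.21 and 0.30, and Eci1 stood in position 13.

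The paralogues of the auxiliary enzymes showed smaller differences. Eci2, an enoyl-CoA isomerase of mitochondria and peroxisomes, had a difference of 0.03 (95% confidence interval -0.12 to 0.18), with log2 values of 11.39, 11.17, 11.26 and 11.27 in the HP rats and 11.40, 11.22, 11.14 and 11.21 in the control rats. The peroxisomal reductase Decr2 had one of 0.12 (95% confidence interval -0.04 to 0.29), with values of 10.66, 10.63, 10.70 and 10.54 in the HP rats and 10.60, 10.43, 10.36 and 10.66 in the control rats. For both genes the diets overlapped, and whether either differed from its mitochondrial counterpart was not tested.

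Enzymes that hand substrates or electrons on in the mitochondrial matrix had differences within the range of the core enzymes, apart from the citric acid cycle. Of 8 other mitochondrial acyl-CoA enzymes 4 were measured (Echs1, Eci2, Hsd17b10 and Acat1), with differences from 0.03 to 0.08 and 0 called by either test. Echs1, the short-chain hydratase that shares the second step with Hadha, had a difference of 0.03 (95% confidence interval -0.07 to 0.13). Etfa and Etfb, the electron transfer flavoprotein that takes the electrons of the acyl-CoA dehydrogenases, had differences of 0.08 and 0.10 and were not called. The ketogenic genes Bdh1 and Acat1 had 0.09 and 0.08. Of the citric acid cycle, which burns the acetyl-CoA, 5 of 18 genes were measured, with a median of 0.01, differences from -0.05 (Cs) to 0.12 (Idh2), and 0 called. The only measured gene of the odd-chain end, Mcee, had a difference of 0.05.

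Larger differences were found for some genes of the carnitine shuttle and of the peroxisomal list. All 5 genes of the carnitine shuttle were measured, with a median of 0.37, and rank products called Crat, Cpt1a and Crot higher (differences 0.56, 0.39 and 0.37) but not Slc25a20 (0.10) or Cpt2 (0.07). Of 11 genes listed for peroxisomal fatty acid oxidation 7 were measured, with a median of 0.11. Rank products called Hacl1 (0.54) and Ech1 (0.53) higher. The remaining peroxisomal differences ran from -0.13 in Acox2 to 0.12 in Decr2. By limma 0 genes of these lists passed (adjusted p from 0.269 for Crat to 0.416 for Hacl1 among the called genes). Crat had log2 values of 8.04, 8.38, 8.26 and 8.22 in the HP rats and 8.09, 7.66, 7.28 and 7.61 in the control rats, so that control rat 1 stood among the HP rats as it did for Eci1.

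**Figure D4:**
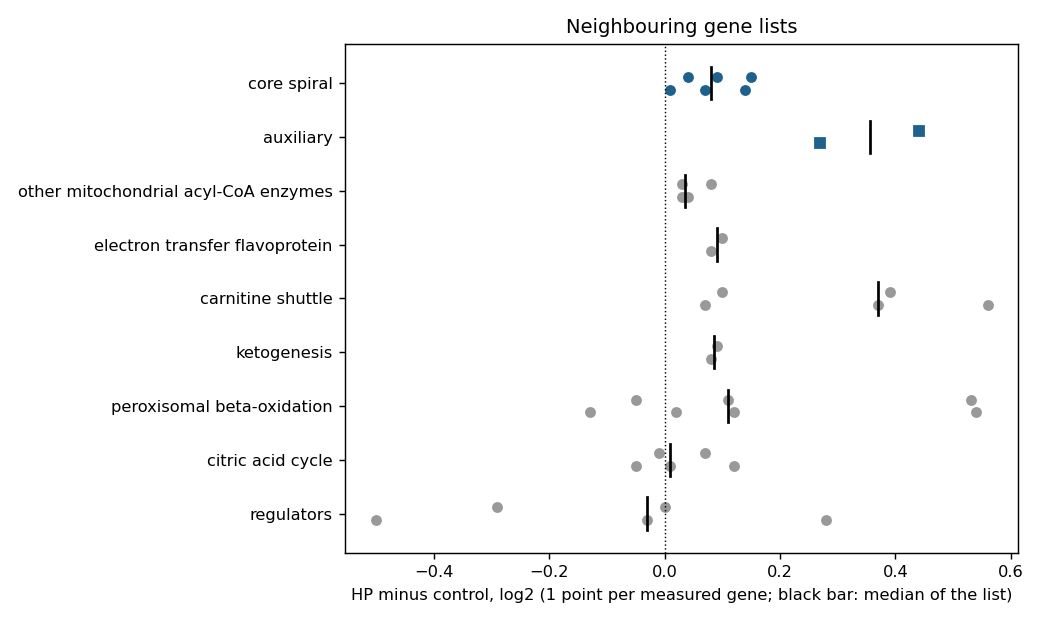
Difference between the diets (HP minus control, log2) for each measured gene of the core spiral, the auxiliary enzymes (squares) and 7 neighbouring lists; each point is 1 gene and black bars are medians. The medians are 0.08 for the core, 0.35 for the auxiliary enzymes, 0.37 for the carnitine shuttle and 0.01 for the citric acid cycle.

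Among 8 regulators of these pathways, Ppara, Rxra and Esrra were almost constant in the deposited values. Rank products called the coactivator Ppargc1a higher (difference 0.28, FDR 0.0282) and Ppargc1b and Lpin1 lower (differences -0.29 and -0.50, FDR 0.0328 and 0.0102). None of them passed limma (adjusted p = 0.527, 0.553 and 0.552). Ppargc1a had log2 values of 7.41, 7.45, 7.94 and 7.09 in the HP rats and 7.57, 7.03, 7.02 and 7.13 in the control rats, with wide overlap. The diets also overlapped for the genes called lower. Lpin1 had 10.46, 10.61, 11.26 and 9.26 in the HP rats and 11.22, 10.85, 10.98 and 10.54 in the control rats. Ppargc1b had 7.06, 7.28, 8.08 and 7.78 against 7.60, 7.95, 7.87 and 7.94. For both genes HP rat 3 was the highest of all rats.

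Markers of other liver cells differed between the diets in places. All 4 measured of 8 sinusoidal endothelial markers had positive differences, with a median of 0.19, and rank products called Kdr (0.26) and Stab2 (0.23) higher. Their mean score ran from -0.01 to 0.16 in the HP rats and from -0.14 to 0.00 in the control rats. All 7 measured of 10 Kupffer cell and macrophage markers had negative differences, with a median of -0.09 and 0 called, and scores from -0.16 to 0.08 in the HP rats and from -0.16 to 0.25 in the control rats. The 6 measured of 8 stellate cell markers had a median of 0.06 and 0 called, and 0 of the 5 bile duct markers were measured. Of 4 blood cell markers only Hbb was measured, and rank products called it higher (0.24, FDR 0.0297). Its highest value was in control rat 2 (11.64), and limma gave an adjusted p = 0.454. The 4 measured hepatocyte genes had a median of 0.01. As a sign of RNA quality, the difference between the probe sets at both ends of the Actb transcript ran from 2.04 to 2.10 in the HP rats and from 1.89 to 2.16 in the control rats. For Gapdh it ran from 0.81 to 0.97 in the HP rats and from 0.95 to 0.98 in the control rats, so that the lowest HP rat lay below every control rat. The part of these markers and of RNA quality in the differences of the β-oxidation enzymes was not tested.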

How the data were processed

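Liver RNA of 8 rats was hybridised to 1-colour Affymetrix rat arrays, 1 per rat. The deposited values are log2 values, which the authors obtained from the CEL files with FARMS in R 2.13.1, and how arrays were normalized to one another is not given in the sources used. All 8 arrays had a median of 6.65, and no normalization was added. The number of arrays limits the precision. The rats were housed singly. Probe sets with a single symbol in the platform annotation were named, and a gene with several measured probe sets is given at the one with the highest mean. Sequences and coordinates are those of RefSeq for GRCr8.

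Rank products used all 16 differences between an HP and a control array over all probe sets and 1000 permutations (Python 3.11.15, numpy 2.4.6). Limma 3.58.1 in R 4.3.3 was fitted with a trend and robust estimation over 4155 probe sets that spanned at least 0.05, two-sided. Both methods were tested on values simulated with independent noise and the same spread in both diets. There limma kept close to its nominal error, which does not show its error in data with unequal spreads. Rank products over the whole array made calls where no difference had been put in, so that its FDR is not an error rate here. The alternatives were centring, quantile normalization, no span filter or one of 0.2, and the dimmest 25% of probe sets left out. Further ones were empirical Bayes without trend and robust estimation, weights for each array, and a block for the replicate number. The last were averaging over a gene's probe sets, ranking of the measured probe sets alone, and each rat left out. Other draws of the permutations were added after seeing the data. The members and lists were chosen with earlier results of these data known. Genes named outside the 10 are those called by either test, the pair with the largest difference in a list without calls, and the 3 closest to Eci1 and Decr1; Acadm, Acads, the paralogues, the remaining members of short lists and the regulators at a constant value were named for completeness.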

Additional observations from a re-analysis of the deposited data

How the results depend on the processing

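Over the 17 alternative settings limma called 0 of the measured enzymes and 0 probe sets in the table, with adjusted p from 0.0766 to 0.613 for Eci1 and from 0.116 to 0.658 for Decr1. Of 134 differences of single enzymes under these settings 133 kept their direction; that of Acadl ran from -0.0046 (without control rat 2) to 0.08 when 1 rat was left out. The calls of rank products moved more. With the dimmest 25% of probe sets left out, 233 were higher and 307 lower, and with only the probe sets that span at least 0.05, 25 and 17, with 0 enzymes called; the cause was not tested. With 1 rat left out the higher calls ran from 86 (without HP rat 2) to 587 (without control rat 1), the lower calls from 71 (without control rat 3) to 538 (without HP rat 1), and the enzymes called from 1 to 3, with Eci1 among them each time. Replicate numbers are shared by both diets. The deviations of rats with the same number correlated at 0.48, 0.03, -0.12 and -0.20, and only HP rat 1 was closest to the control rat of its own number. So few values cannot decide whether the numbers pair the rats, and the main tests took the rats as unpaired. With the replicate number as a block limma called 0 probe sets and 0 enzymes, and rank products called 434 higher, 553 lower and 2 enzymes. The auxiliary minus core value was 0.27 after centring or quantile normalization, and ran from 0.18 to 0.36 with 1 rat left out. Acadm, Acads and Ppara were almost constant over the rats, so that no difference could be measured for them. At an unadjusted limma p under 0.05, from 1 to 6 of the enzymes were higher with 1 rat left out. With the replicate block 1 was higher (Hadhb 0.052, Acaa2 0.0524, Decr1 0.0559). There were 2 without the span filter, and also 2 with both the trend and the robust estimation left out.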
